A study of Mus musculus with 10 samples.

Results

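Transcript levels of 10 hormone nuclear receptor genes were examined in mouse right atrium: Vdr, Rxra, Rxrg, Rara, Thra, Thrb, Nr3c1, Nr3c2, Rora and Esr1. They were chosen by name, as receptors for vitamin D, retinoids, thyroid hormone, corticosteroids and estrogen together with the orphan receptor Rora, with earlier results of these data known, and all 10 were found among the 23337 genes of the deposited table. Right atrial RNA was sequenced from 4 labelled controls and 6 labelled Tbx5 mutants, to ask which atrial transcripts change after loss of TBX5, a T-box transcription factor of the atrium. The mutation is a loss of exon 3 of Tbx5 in the adult, brought about by a Cre that tamoxifen activates, and since this Cre is made in all tissues from R26 the deletion was not limited to cardiomyocytes. The dose of tamoxifen was 0.167 mg daily over 3 days, with tissue taken 1 week after it. The sample labels give this treatment and a mixed strain for both groups and describe the controls only as control, so the alleles that the controls carry are not stated there. An age of 8 to 10 weeks is given in one label field and of 6 to 8 weeks in another, and each library is described as 1 numbered mouse with nothing further on litter or batch, so p-values measure the spread between these libraries.

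Nuclear receptors are transcription factors whose activity is set by small lipophilic ligands. Receptors for vitamin D, retinoic acid and thyroid hormone sit on DNA as heterodimers with a retinoid X receptor and exchange corepressors for coactivators when ligand binds, whereas steroid receptors are held by heat shock protein chaperones until hormone releases them and then bind DNA as homodimers. In heart, thyroid hormone is best known for its control of myosin and calcium-pump genes, the glucocorticoid receptor (Nr3c1) for metabolic and stress responses, and the mineralocorticoid receptor (Nr3c2) for its role in fibrosis and electrical remodelling.

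Vdr, Nr3c2 and Rora were lower in the labelled mutants, and the promoters of these genes, the 250 bases before each RefSeq start site in GRCm38.p6, are shown so that the proximal sequence of the changed genes can be read beside one of Rxra, a partner receptor that did not pass the test, chosen as an example of a window with matches. Of the 10 genes, 8 had a promoter in the RefSeq table and 15 promoters were searched on both strands for the T-box core GGTGTG and the nuclear receptor half-site AGGTCA. Capitals mark matches, written 5′ to 3′ along the gene's own strand. The promoters of Vdr (chr15:97908297-97908546, reverse strand), Nr3c2 (chr8:76902080-76902329, forward strand) and Rora (chr9:68653536-68653785, forward strand) and the second Rxra promoter (chr2:27709042-27709291, forward strand) read:
Vdr: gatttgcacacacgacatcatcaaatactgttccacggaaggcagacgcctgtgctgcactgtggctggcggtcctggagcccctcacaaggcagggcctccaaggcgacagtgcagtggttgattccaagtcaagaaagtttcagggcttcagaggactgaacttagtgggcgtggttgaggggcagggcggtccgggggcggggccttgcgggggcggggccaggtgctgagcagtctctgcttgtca
Nr3c2: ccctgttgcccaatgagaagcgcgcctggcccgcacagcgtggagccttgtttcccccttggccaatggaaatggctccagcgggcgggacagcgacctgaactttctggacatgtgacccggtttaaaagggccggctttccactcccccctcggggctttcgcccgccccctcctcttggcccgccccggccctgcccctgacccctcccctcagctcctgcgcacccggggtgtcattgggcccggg
Rora: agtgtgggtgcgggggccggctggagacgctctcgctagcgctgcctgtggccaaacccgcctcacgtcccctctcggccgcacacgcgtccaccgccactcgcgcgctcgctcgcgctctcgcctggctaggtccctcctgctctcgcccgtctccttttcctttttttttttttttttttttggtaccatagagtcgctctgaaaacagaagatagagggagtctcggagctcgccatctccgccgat
Rxra: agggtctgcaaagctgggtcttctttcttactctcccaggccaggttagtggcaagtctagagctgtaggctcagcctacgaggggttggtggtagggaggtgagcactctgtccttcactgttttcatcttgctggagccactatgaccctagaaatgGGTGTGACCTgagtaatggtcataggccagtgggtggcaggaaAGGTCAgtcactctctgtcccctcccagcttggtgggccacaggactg

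Neither set of letters occurred in the Vdr, Nr3c2 or Rora window. Nor did they occur in the first Rxra promoter (chr2:27676951-27677200). In the second Rxra promoter, the T-box core lay from -91 to -86 relative to the start site, a half-site on the opposite strand overlapped it from -87 to -82, and another half-site lay from -48 to -43. The T-box core also occurred in 3 of the Rara promoters, but the windows that start at chr11:98937446 and chr11:98937468 overlap and share the same match. The half-site occurred in 1 promoter each of Rxrg (-88 to -83) and Thrb (-184 to -179). Over all 32851 promoters of the table, 16.3% held the T-box core and 14% held the half-site. The Vdr, Nr3c2 and Rora windows were GC-rich, with 61.2%, 68.4% and 61.2% G or C and 11, 17 and 26 CpG dinucleotides, against medians of 52.4% and 6 over all promoters. Promoters of receptors that were not called reached higher values, such as 81.2% with 40 CpG for the first of Rxra and 71.6% with 30 for one of Thrb. A match, or its absence in 250 bases, is a description of the sequence, and binding was not measured in these libraries.

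Several properties of the libraries bear on every value. The deposited counts summed to 5703775 to 7095141 per library. The ribosomal RNA precursor Rn45s took 38.9% of the counts in mutant M3, leaving 3484550, and 0.268% to 1.49% elsewhere. Tbx5 itself was higher in the labelled mutants, at 394 ± 83.3 CPM (SD, n = 6) against 205 ± 17.8 CPM (SD, n = 4), a log2 fold change of 0.94 (adjusted p = 0.000495, edgeR's quasi-likelihood test). CPM are reads scaled to the library size after edgeR's TMM correction. The gene count covers all exons and does not isolate exon 3. The direction is opposite to a loss of Tbx5 RNA over the whole gene, and whether exon 3 was lost cannot be read from it. Atp2a2, a known target that TBX5 activates, ran the way the labels say, with a log2 fold change of -1.04 (adjusted p = 0.000152). Directions are given relative to the labels. Among the 4 labelled controls, those labelled male had 10149 and 7850 reads of Xist and those labelled female had 5 and 14, while the mutants matched their sex labels. Summed ventricular markers (Myl2, Myl3 and Irx4) were at 35.0 to 57.7 CPM in controls and 603 to 845 CPM in mutants, although the ventricular gene Irx4 had at most 3 reads in any library, and both tested genes were higher. Of the 4 atrial markers, 3 were lower (39390 to 44180 against 16500 to 31510 CPM). Fibroblast markers, 2 of 6 higher, summed to 3418 to 4578 against 5377 to 8219 CPM. Leukocyte markers, 3 of 4 tested higher, summed to 287 to 482 against 451 to 702 CPM. Smooth muscle and pericyte markers, 2 of 5 higher, summed to 182 to 239 against 246 to 638 CPM. Cardiomyocyte markers, 1 lower and 2 higher of 6, summed to 37210 to 53040 against 44970 to 53350 CPM. Endothelial markers, 0 of 6 called, summed to 1495 to 2129 against 1485 to 1960 CPM. The part of these differences in the receptor values was not tested.

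Of the 10 receptors, 3 were lower in labelled mutants, Vdr, Nr3c2 and Rora, and 0 were higher. To be called, a gene needed an adjusted p under 0.05 (edgeR's quasi-likelihood test, Benjamini-Hochberg), a fold change over 1.5 and a mean normalized signal over 1 in controls. By this rule 15.7% of the 13084 genes tested were called, 7.16% lower and 8.50% higher. All 10 receptors passed the expression filter. Thra also had an adjusted p under 0.05 but a smaller fold change, making 4 of 10 receptors lower at any fold, against 15.0% of all genes tested. In the same 4 receptors every labelled mutant was below every labelled control, which held for 11.0% of all genes tested. The median log2 fold change was -0.28 over the 10 receptors, 8 of them negative, and -0.0050 over all genes tested.

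**Figure D1:**
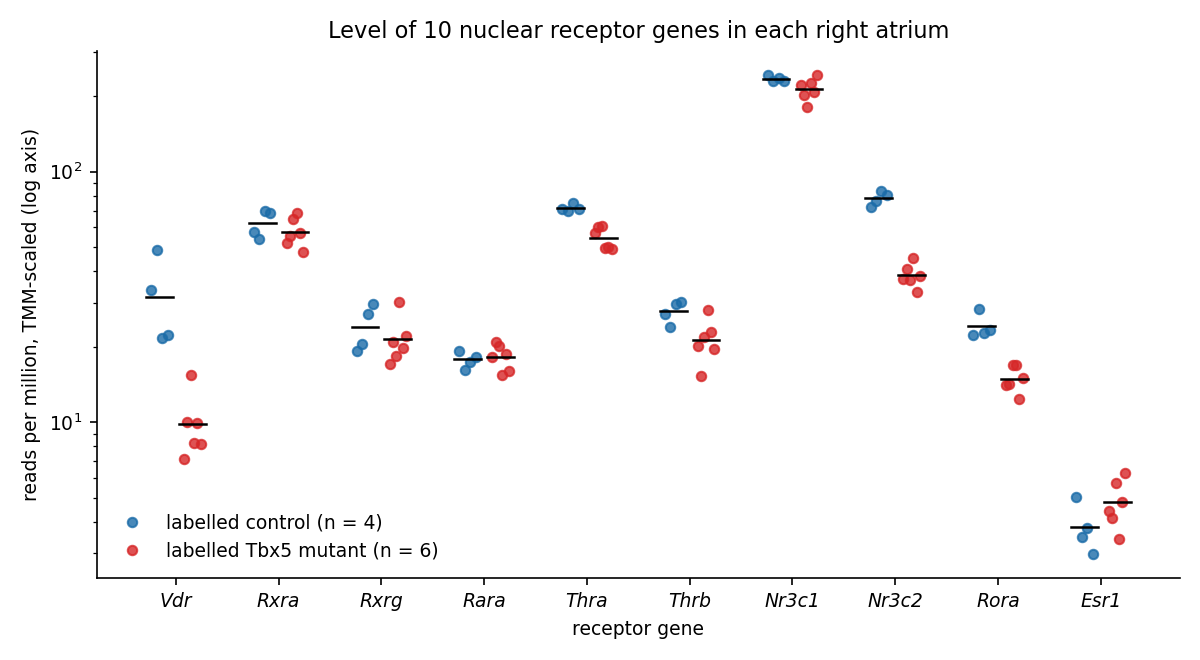
Level of each receptor gene in every mouse, in TMM-scaled CPM on a log axis, with 1 point per library and a bar at each group's mean. The points of the 4 labelled controls lie above those of the 6 labelled mutants for Vdr, Thra, Nr3c2 and Rora and mix with them for the other receptors.

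Vdr encodes the receptor for the active form of vitamin D and showed the largest fold change among the 10 genes. In GENCODE M21 on GRCm38 it lies on the reverse strand at chr15:97854425-97910630 (ENSMUSG00000022479.15). It was at 33.6 and 48.6 CPM in controls M1 and M2 and at 21.6 and 22.3 CPM in controls F1 and F2. The labelled mutants ran from 7.10 CPM in F1 through a median of 9.06 to 15.5 CPM in F3. The groups did not overlap, the controls were spread over a wide range with M1 and M2 on top, and mutant F3 stood above the 5 other mutants. Behind these values were 138 to 294 reads in controls and 30 to 111 in mutants. Means were 31.5 ± 12.6 CPM (SD, n = 4) and 9.81 ± 2.99 CPM (SD, n = 6). The log2 fold change was -1.66 (standard error 0.24, 95% interval -2.18 to -1.14, adjusted p = 0.000232, edgeR's quasi-likelihood test), which leaves 31.6% of the control level. An exact two-sided permutation test over the 210 splits of 4 against 6 mice gave p = 0.00952, the smallest it can give. In bulk tissue, fewer cells that express a gene and less of its RNA per cell cannot be told apart.

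The size of the Vdr difference varied with the mice compared, while its direction and call did not. Among mice labelled male the log2 fold change was -2.21 (adjusted p = 0.000993) and among mice labelled female -1.01 (adjusted p = 0.0196). The interaction of labelled genotype and sex was -1.20 on the log2 scale with adjusted p = 0.260, and 0.60 with adjusted p = 0.691 once the sex labels of the controls were exchanged to match their Xist reads. That interaction passed an adjusted p of 0.05 for 0 of the 10 receptors and for 0.290% of all genes tested, and 2 receptors, Vdr and Rxrg, had an unadjusted p under 0.05 with the labels as given and 0 with them exchanged. Leaving out control M2, the highest library, gave -1.37, and leaving out mutant F3 gave -1.83.

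Retinoid X receptors, the partners of Vdr on DNA, were not called. Rxra (chr2:27676440-27762957, forward) was at 57.4, 54.1, 69.8 and 68.6 CPM in controls M1, M2, F1 and F2 and between 47.9 and 68.4 CPM in mutants, with a median of 56.0. Rxrg (chr1:167598384-167639623, forward), the form restricted largely to muscle and brain, was at 19.3, 20.5, 26.97 and 29.5 CPM in the same controls and between 17.0 and 30.2 CPM in mutants, with a median of 20.4. Both sets of values overlapped widely, and in both genes the controls labelled female were the higher pair. The log2 fold change was -0.12 for Rxra (95% interval -0.36 to 0.13, adjusted p = 0.453, edgeR) and -0.18 for Rxrg (-0.53 to 0.18, adjusted p = 0.440). The lower bounds correspond to 0.779 and 0.692 of the control level. For Rxrg the mice labelled male gave 0.27 and those labelled female -0.58, the latter with adjusted p = 0.0161. These splits use control sex labels that the Xist reads contradict, and the interaction of genotype and sex for Rxrg was 0.86 (adjusted p = 0.217) as labelled and -0.15 (adjusted p = 0.929) with the control labels exchanged. The third member, Rxrb, had a log2 fold change of 0.05 (adjusted p = 0.776).

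Rara and its paralogues bind all-trans retinoic acid. Rara (chr11:98927818-98974942, forward) was at 19.3, 16.2, 17.4 and 18.3 CPM in controls M1, M2, F1 and F2 and between 15.4 and 20.9 CPM in mutants, with a median of 18.4. No separation was seen, and the log2 fold change was 0.04 (95% interval -0.20 to 0.28, adjusted p = 0.801, edgeR). Rarb and Rarg stood at -0.19 (adjusted p = 0.212) and -0.29 (adjusted p = 0.0942). Part of Rarb's exon sequence, 34.1% of its bases, is shared with Top2b on the opposite strand. Whether counting used strand is not given in the sources used here, so reads of such pairs may not be separated.

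The thyroid hormone receptors had like point estimates in the fit as reported, and only Thra passed the adjusted p. With the length trend removed the estimates were further apart, Thra at -0.50 (adjusted p = 0.000993, edgeR) and Thrb at -0.21 (adjusted p = 0.296). Thra (chr11:98740638-98769006, forward), the main thyroid hormone receptor of heart muscle, was at 71.2, 69.6, 75.3 and 70.9 CPM in controls M1, M2, F1 and F2. Labelled mutants lay between 49.3 and 60.5 CPM with a median of 53.4, below every control. Thrb (chr14:17660261-18038090, forward) was at 27.0, 24.0, 29.6 and 30.1 CPM in controls and between 15.3 and 27.9 CPM in mutants, with a median of 21.04, so that its groups overlapped. Thra fell by 0.40 on the log2 scale (standard error 0.087, adjusted p = 0.00383, edgeR), to 75.9% of control, and was not called because the fold change was under 1.5. Thrb stood at -0.38 (standard error 0.14, adjusted p = 0.0541). Exons of Thra share 263 bases, 5.7% of its exon bases, with Nr1d1 on the opposite strand, and Nr1d1 had a log2 fold change of -0.55 (adjusted p = 0.0341). Among mice labelled female alone Thra was at -0.31 (adjusted p = 0.0665, edgeR) and Thrb at -0.64 (adjusted p = 0.0174), where Thrb was called. Among mice labelled male Thra was at -0.50 (adjusted p = 0.0363, edgeR) and Thrb at -0.11 (adjusted p = 0.7205). Both splits use control sex labels that the Xist reads contradict, so by Xist each sets controls of one sex against mutants of the other.

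The corticosteroid receptors differed from each other. Nr3c1 (chr18:39410545-39519421, reverse), the glucocorticoid receptor and the most abundant of the 10, was at 244, 230, 237 and 230 CPM in controls M1, M2, F1 and F2. Labelled mutants lay between 181 and 243 CPM, with a median of 215, and overlapped the controls. Nr3c2 (chr8:76899442-77245012, forward), the mineralocorticoid receptor, was at 72.4, 76.6, 83.9 and 80.7 CPM in the same controls and between 33.1 and 45.4 CPM in mutants, with a median of 37.9. The groups for Nr3c2 were well apart and each was narrow, with 463 to 596 reads in controls and 141 to 306 in mutants. Nr3c2 fell by 1.02 on the log2 scale (standard error 0.093, 95% interval -1.22 to -0.82, adjusted p = 5.11e-06, edgeR), to 49.3% of control, the lowest adjusted p of the 10. Nr3c1 stood at -0.14 (95% interval -0.34 to 0.06, adjusted p = 0.259). Exons of Nr3c2 share 247 bases with Gm10649, which had at most 2 reads assigned to it in any library, and reads on the shared bases were not counted apart.

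Rora (chr9:68653786-69388246, forward) encodes an orphan receptor that activates core clock genes. It was at 22.3, 28.3, 22.7 and 23.3 CPM in controls M1, M2, F1 and F2 and between 12.4 and 17.0 CPM in mutants, with a median of 14.6. The groups did not overlap and control M2 stood above the other controls. Rora fell by 0.69 on the log2 scale (standard error 0.12, adjusted p = 0.000604, edgeR), to 61.8% of control. Rora has the longest transcript of the 10, at 10878 bases, and log2 fold changes of all genes ran downwards with transcript length (Spearman's rho -0.314 across 11868 genes, which are not independent replicates). With that trend removed from each library, Rora was at -0.43 (adjusted p = 0.00949), below the 1.5-fold threshold, while Vdr at -1.60 and Nr3c2 at -0.86 were called, so that 2 of 10 receptors were lower against 6.51% of genes. Its paralogue Rorb, with 1 to 5 reads, was not tested.

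Esr1 (chr10:4611593-5005614, forward), the estrogen receptor alpha gene, was the least abundant of the 10, with 20 to 41 reads per library. It was at 5.001, 3.47, 3.76 and 2.98 CPM in controls M1, M2, F1 and F2 and between 3.43 and 6.26 CPM in mutants, with a median of 4.61. The groups overlapped, and the log2 fold change of 0.32 had a 95% interval from -0.15 to 0.78 (adjusted p = 0.281, edgeR), so that a 1.5-fold rise lies inside the interval at this depth. The Cre fusion used in these mice carries part of an estrogen receptor and tamoxifen is itself an estrogen receptor ligand. Whether reads from the transgene fell on Esr1 was not tested.

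**Figure D2:**
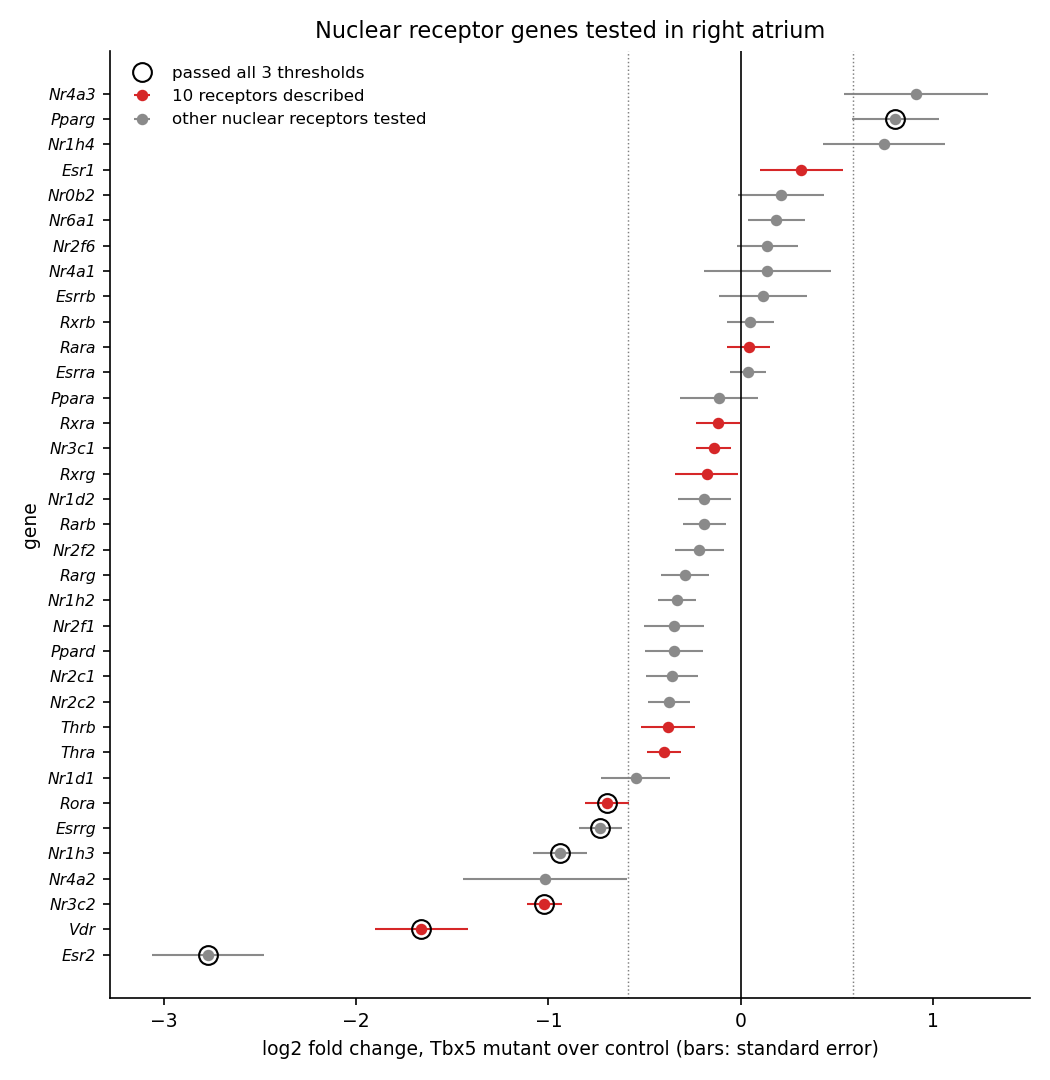
Log2 fold change of labelled Tbx5 mutant over control for nuclear receptor genes tested, with bars for the standard error, dotted lines at a fold change of 1.5 and rings on genes that passed all 3 thresholds. Vdr at -1.66 and Nr3c2 at -1.02 lie near the lower end, below Rora at -0.69, with Esr2 at -2.77 the lowest.

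Of the other 39 receptors of the superfamily 27 were tested, and 4 were lower and 1 higher, with a median log2 fold change of -0.19. Over all genes tested 7.16% were called lower and 8.50% higher, with a median of -0.0050. Esr2, which encodes estrogen receptor beta, fell from 4.83 ± 1.56 CPM (SD, n = 4) to 0.688 ± 0.170 CPM (SD, n = 6), a log2 fold change of -2.77 (adjusted p = 1.74e-05, edgeR). Counts of Esr2 were low, 17 to 43 reads in controls and 2 to 6 in mutants, and did not overlap. Nr1h3, the oxysterol receptor LXR alpha, was at -0.94 (adjusted p = 0.000269) and Esrrg, an estrogen-related receptor of oxidative muscle, at -0.73 (adjusted p = 0.000309). Pparg, the adipogenic receptor, was higher at 0.81 (adjusted p = 0.0158). The progesterone receptor Pgr had at most 1 read in any library.

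Per kilobase of the longest annotated transcript, which allows levels of different genes to be set side by side, Nr3c1 was highest in controls at 36.6 CPM per kilobase, followed by Thra at 29.3, Nr3c2 at 13.3, Rxra at 12.7, Rxrg at 11.4, Vdr at 7.22, Rara at 5.26, Thrb at 4.46, Rora at 2.22 and Esr1 at 0.600. Ranges over the 4 controls overlapped between neighbours from Nr3c2 down to Thrb, so that stretch of the order is not resolved. Nr3c1, Thra, Rora and Esr1 did not overlap their neighbours at the transcript lengths used. Without division by length Nr3c1 and Esr1 kept their places, but Thra ranked 3 and Rora 7. Which transcripts of a gene were present was not tested. In labelled mutants the order was Nr3c1 at 33.2, Thra at 22.2, Rxra at 11.7, Rxrg at 10.1, Nr3c2 at 6.54, Rara at 5.39, Thrb at 3.44, Vdr at 2.25, Rora at 1.37 and Esr1 at 0.756 CPM per kilobase. Per kilobase, Nr3c2 thus stood above both retinoid X receptors on average in controls and below both, without overlap, in mutants. Without division by length this change of order held for Rxra but not for Rxrg. In undivided CPM the mutants had Nr3c2 at 33.1 to 45.4, above Rxrg at 17.0 to 30.2, without overlap. Vdr moved, per kilobase, from above Rara and Thrb on average to below Rara without overlap, and its mutant range overlapped that of Thrb. Without division by length the mutant range of Vdr, up to 15.47 CPM, also overlapped that of Rara, from 15.43 CPM.

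The balance of receptors within a library was compared as a ratio of reads, which does not depend on library size. Ratios of 6 pairs were computed, 5 of which are given, and were chosen after the values were seen, so their p-values are not independent of the levels above. The ratio of Nr3c1 to Nr3c2 was 3.37, 3.00, 2.83 and 2.86 in controls M1, M2, F1 and F2 and ran from 4.89 to 6.33 in mutants. Means were 3.01 ± 0.248 (SD, n = 4) and 5.57 ± 0.696 (SD, n = 6), a log2 difference of 0.88 (exact two-sided permutation p = 0.00952, 0.0190 after Benjamini-Hochberg adjustment over 6 ratios). The ratio was higher in 6 of 6 labelled mutants than in any control. Vdr to Rxra went from 0.530 ± 0.277 to 0.170 ± 0.0415, without overlap and with the same exact permutation p and adjusted p. Thra to Thrb (log2 difference -0.01, exact permutation p = 0.962), Rxra to Rxrg (0.05, exact permutation p = 0.762) and Rara to Rarb (0.22, exact permutation p = 0.276) were within the spread between mice.

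**Figure D3:**
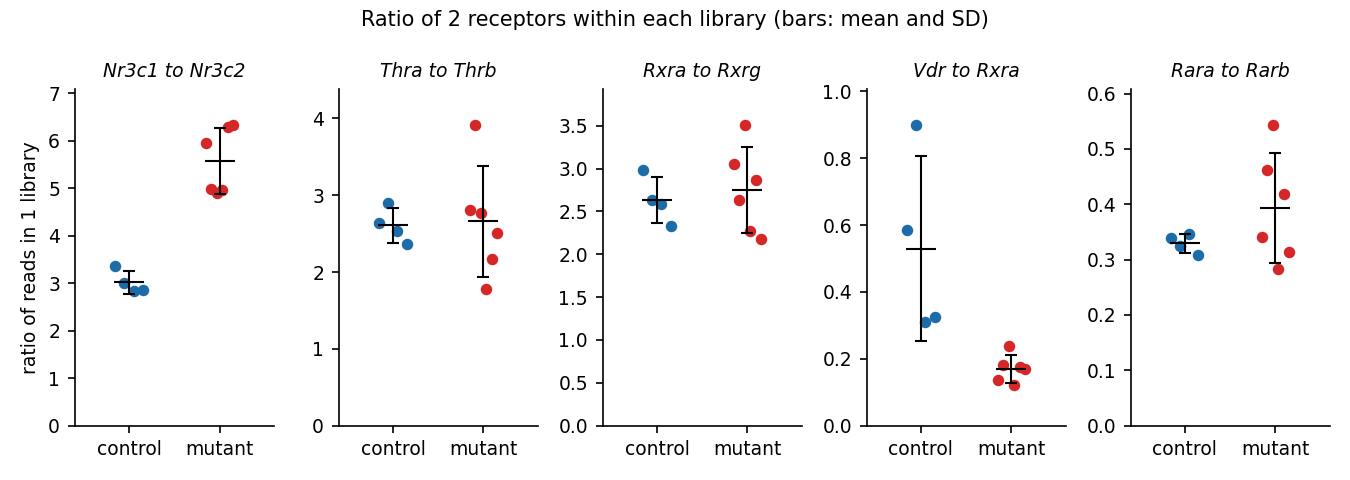
Ratio of the reads of 2 receptors in each library, with a panel for each pair, 1 point per mouse and bars for mean and SD. For Nr3c1 to Nr3c2 the 6 labelled mutants lie from 4.89 to 6.33 and the 4 controls from 2.83 to 3.37, and for Thra to Thrb and Rxra to Rxrg the groups mix.

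Across mice the 10 receptors did not vary as a block. After each group's mean was taken off, Pearson's r between 2 receptors over the 10 mice ran from -0.667 (Thra and Nr3c1) to 0.768 (Rxrg and Nr3c2) in 45 pairs, and 2 pairs exceeded 0.7, the other being Rara and Thra at 0.747. The genes most like Vdr by the same measure, among 11825 genes with a mean of at least 20 reads, were Zfp512 (0.969), Pcsk5 (0.963), Smndc1 (0.952), Psd (0.943) and Mpzl1 (0.927). These are descriptions over 10 libraries that share their depth and scaling. Between the groups these genes went different ways, from -0.47 for Smndc1 (adjusted p = 0.0111, edgeR) and -0.24 for Zfp512 (adjusted p = 0.0425) to 0.13 for Pcsk5 (adjusted p = 0.531).

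Coregulators, which carry out activation or repression for nuclear receptors, were lower more often than higher in the fit as reported. With the length trend removed this held for called genes, but not for genes that passed the adjusted p at any fold change. All 20 were tested, and 3 were called lower (Ppargc1a and Carm1 among them) and 0 higher, against 7.16% and 8.50% of all genes tested. The median log2 fold change was -0.39. At adjusted p under 0.05 with any fold change, 12 of 20 were lower and 2 higher, against 15.0% and 16.3% of all genes tested. Ppargc1a, the coactivator of mitochondrial biogenesis, was at 159 ± 19.6 CPM (SD, n = 4) in controls and 92.0 ± 17.96 CPM (SD, n = 6) in mutants, a log2 fold change of -0.79 (adjusted p = 0.00102, edgeR). The histone acetyltransferases Crebbp (-0.41, adjusted p = 0.0042) and Ep300 (-0.56, adjusted p = 0.0151) and the corepressor Ncor1 (-0.39, adjusted p = 0.0158) fell by less than 1.5-fold. With the length trend removed the median was -0.16. In that fit 2, Carm1 and Ppargc1a, were still called lower and 0 higher, against 6.51% of genes called lower. Carm1 shares 1025 bases, 21.1% of its exon bases, with Yipf2 on the opposite strand, so reads of the 2 genes may not be separated. At adjusted p under 0.05 with any fold change, 3 of 20 were lower and 3 higher. These counts were near the shares of 13.0% and 15.2% over all genes in that fit, and Crebbp, Ep300 and Ncor1 no longer passed. Of 11 chaperones of steroid receptors 0 were called, and 1, Fkbp4, passed the adjusted p alone (-0.34, adjusted p = 0.0272, edgeR). With the length trend removed 0 were called, and their median log2 fold change went from -0.04 to -0.19. In that fit 3 of 11 were lower and 0 higher at adjusted p under 0.05, against 13.0% and 15.2% of all genes.

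Enzymes and carriers that set local ligand levels were mostly at low counts, and 13 of 25 were tested. Of these 0 were called lower and 3 higher, against 7.16% and 8.50% of all genes tested. Among those that rose were the retinaldehyde dehydrogenases Aldh1a1 (0.69, adjusted p = 0.00144, edgeR) and Aldh1a3 (1.21, adjusted p = 0.00354), which make retinoic acid. With the length trend removed, Aldh1a1 was at 0.58 (adjusted p = 0.00442) and under the 1.5-fold threshold, and Aldh1a3 was called. Dio2, which converts the thyroid prohormone into its active form, was at 7.52 ± 6.57 CPM (SD, n = 4) and 17.5 ± 6.74 CPM (SD, n = 6) and did not pass (1.22, adjusted p = 0.0605), but was called higher with the length trend removed (1.38, adjusted p = 0.0378). The thyroid hormone transporter Slc16a10 was lower by less than 1.5-fold, at -0.41 (adjusted p = 0.013), and at -0.29 (adjusted p = 0.0692) with the length trend removed. Hsd11b1, which regenerates active glucocorticoid, was at -0.13 (adjusted p = 0.749), and Hsd11b2, which inactivates it and so guards the mineralocorticoid receptor in kidney, had at most 7 reads. Cyp27b1, which makes active vitamin D, had 3 to 7 reads in controls and 0 to 2 in mutants, and Cyp24a1, which degrades it and is the classical Vdr target, had 0 reads in all 10 libraries, which allows up to 0.4 to 0.817 CPM (3 counts). Molecular identifiers were not part of these reads, so such limits cover counting error only.

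Known target genes moved in both directions. Over all genes tested 7.16% were called lower and 8.50% higher. Of 12 vitamin D receptor targets 3 were tested and 0 were called, with log2 fold changes of -0.11 for Atp2b1, -0.01 for Lrp5 and 0.48 for Cd14. Among 12 thyroid hormone targets, of which Myh7 and Pln are known to be lowered by the hormone, 1 was lower and 1 higher. Atp2a2, the calcium pump of the sarcoplasmic reticulum, fell to 48.7% of control (-1.04, adjusted p = 0.000152, edgeR). Pln, its inhibitor, rose to 193% (0.95, adjusted p = 0.000232, edgeR). Counts by direction are thus no measure of hormone action in this list, and such action was not tested. The myosin genes Myh6 (0.10, adjusted p = 0.711) and Myh7 (0.92, standard error 0.54, adjusted p = 0.208) were not called.

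Of 21 corticosteroid targets 17 were tested, 1 lower and 4 higher, against 7.16% and 8.50% of all genes tested. Their median log2 fold change was 0.31, against -0.0050 over all genes tested. Mt2, a metallothionein, rose from 9.52 ± 2.61 CPM (SD, n = 4) to 36.5 ± 12.5 CPM (SD, n = 6), a log2 fold change of 1.95 (adjusted p = 8.65e-05, edgeR). Sgk1, a kinase induced by aldosterone and glucocorticoid, rose by 0.77 (adjusted p = 0.000375), with Mt1 at 1.09 (adjusted p = 0.0015) and Angptl4 at 1.44 (adjusted p = 0.0259). The 1 lower gene was Nedd4l, the ubiquitin ligase that Sgk1 inhibits. Nedd4l fell by 0.77 on the log2 scale (adjusted p = 0.000144, edgeR) and by 0.55 with the length trend removed, when it was no longer called. It stands in the list beside genes induced by corticosteroids, and whether these hormones raise or lower Nedd4l was not tested. Counts by direction are thus no measure of hormone action in this list either. Genes commonly read as glucocorticoid responses were not called, with Fkbp5 at 0.59 (adjusted p = 0.138), Tsc22d3 at 0.10 (adjusted p = 0.784) and Per1 at 0.04 (adjusted p = 0.935). Leukocyte and fibroblast markers were higher in the same mice, and their part in these changes was not tested.

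Of 10 retinoic acid targets 5 were tested, and 0 were lower and 2 higher, among them Tgm2, a transglutaminase (1.03, adjusted p = 0.000119, edgeR). Of 7 clock genes under ROR control, all tested, 2 were lower and 0 higher. Arntl, which encodes the core activator BMAL1, fell by 1.01 on the log2 scale (adjusted p = 0.00239) and Clock, its partner, by 0.63 (adjusted p = 0.0132). The time of day of collection was not used here, and with the length trend removed Clock was no longer called (-0.38, adjusted p = 0.0453) while Nr1d1, a repressor of the clock, was (-0.62, adjusted p = 0.0184), so that 2 of 7 were lower there too. Of 10 estrogen targets 6 were tested, with 0 lower and 1 higher, Ccnd1, a cyclin (0.81, adjusted p = 0.000317), and Greb1, a common readout of estrogen, at -0.87 (adjusted p = 0.0832). These lists are short, and their counts stand beside 7.16% called lower and 8.50% called higher over all genes tested. Some genes stand in more than 1 list.

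**Figure D4:**
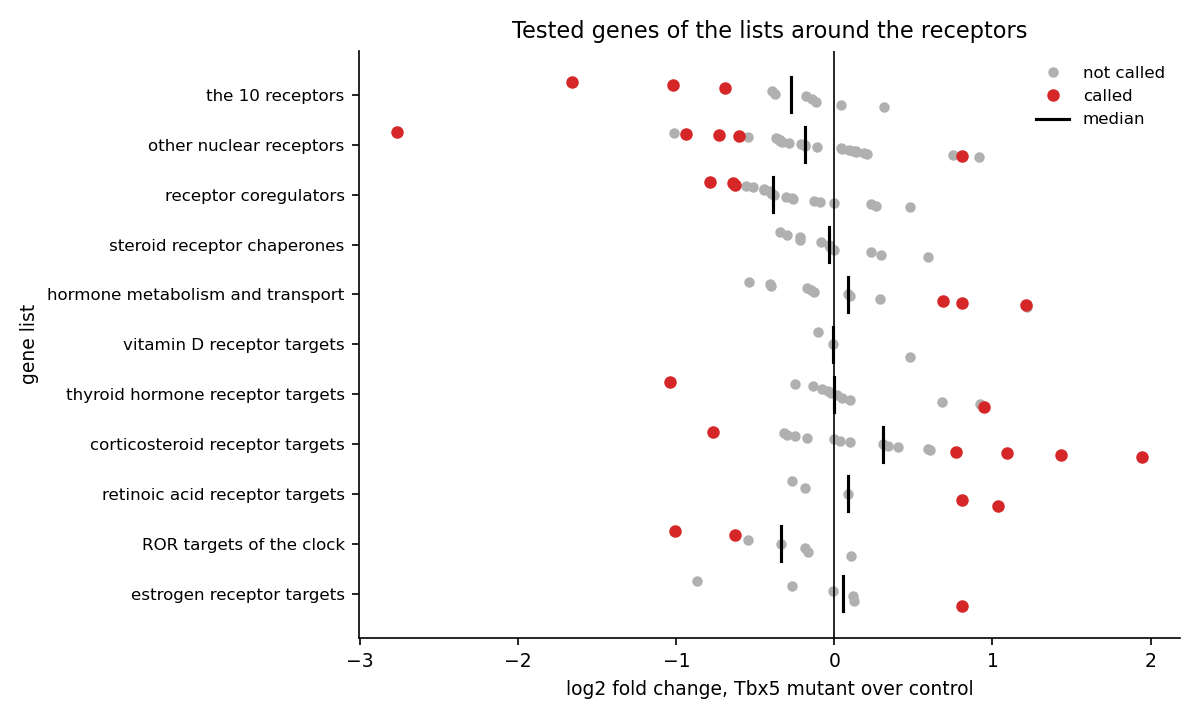
Log2 fold change of labelled Tbx5 mutant over control for each tested gene of the receptor list and of 10 lists around it, with called genes in red and the median of each list as a bar. The medians run from -0.39 for coregulators to 0.31 for corticosteroid targets, and called genes lie on both sides for other nuclear receptors, thyroid targets and corticosteroid targets. Nedd4l is the only corticosteroid target called lower.

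**Figure D5:**
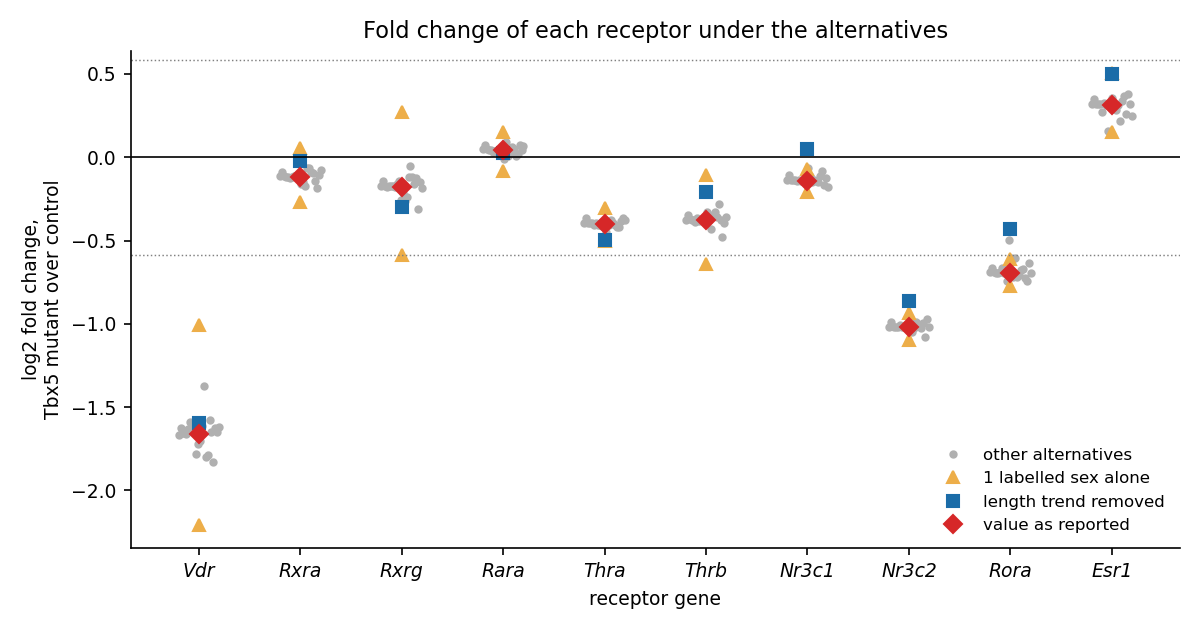
Log2 fold change of each receptor as reported and under up to 25 alternative fits, with dotted lines at a fold change of 1.5. Vdr and Nr3c2 stay below the lower line in each, Rora crosses it with the length trend removed, and Rxra, Rara and Nr3c1 lie around 0. Rxrg runs from -0.58 among mice labelled female to 0.27 among mice labelled male.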

How the data were processed

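Right atrial RNA-seq of 10 mice, 4 labelled control and 6 labelled Tbx5 mutant, was analysed from 1 table that the authors deposited. It holds counts of reads per gene as whole numbers without normalization, and a signal per gene, the count over a DESeq2 size factor of its library, as deposited by the authors. The authors' own comparison (fold changes, errors and p-values) was deposited beside these and was not used. All per-library columns belonged to the 10 samples. The submitters' processing notes name FastQC, TopHat2 2.0.11, featureCounts, DESeq2 and mm10, with no role or order. The paper describes left atrial libraries, which were not analysed here.

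Counts were filtered and scaled by TMM in edgeR 4.0.16 (R 4.3.3) and compared with the quasi-likelihood test over 13084 genes, without covariates. The prior count was 0.125. Standard errors were derived from the F statistic. The mean control signal was used only as a threshold. Library totals ran from 5703775 to 7095141, and 3 counts corresponded to 0.4 to 0.817 CPM. In counts simulated for 12985 genes, 200 of them with a fold of 2, the fit found 161 of the 200 with the correct sign and called 7 others. Alternatives included DESeq2 1.42.0, limma 3.58.1, other scalings and filters, sex, the replicate number as a block, each library left out and removal of the length or GC trend (lowess, span 0.4). Transcript length, known for 11868 tested genes, came from GENCODE M21. Within groups, repeated libraries were checked for by chi-square, which was at least 3.78 per degree of freedom in 21 pairs.

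The receptors and gene lists were chosen with earlier results of these data known. Genes named are the 10 receptors, Tbx5, up to 2 lower and 2 higher called genes with the lowest adjusted p in each list, fixed paralogues and readouts, and the 5 genes most correlated with Vdr. Other genes named from the lists, the 6 ratios, and the length-corrected list counts were chosen after values were seen. Some genes of these lists enter the counts and medians but are not reported here.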

Additional observations from a re-analysis of the deposited data

Results flagged for a closer look

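In 2 of the 20 groups of receptor values, 1 mouse stood apart from the rest of its group by Dixon's test, where chance alone gives about 1. Vdr in mutant F3 was at 15.47 CPM, with the 5 other labelled mutants between 7.10 and 9.995 CPM. Rora in control M2 was at 28.29 CPM, with the 3 other controls between 22.3 and 23.3 CPM. Both libraries were within the range of the others in total counts. Rn45s took 0.582% of the counts in mutant F3 and 1.49% in control M2, the highest share after mutant M3. A part of Rn45s in these values was not tested. Without mutant F3 the log2 fold change of Vdr was -1.83, and without control M2 that of Rora was -0.61 (adjusted p = 0.00294, edgeR), so both calls were made without these mice as well.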

How the results depend on the processing

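Vdr and Nr3c2 were called lower in each of the 25 alternative fits, with log2 fold changes of -2.21 to -1.01 and -1.10 to -0.86. Rora was called in all but the 2 with the length trend removed, and not at a fold over 2. Over the 10 receptors, 238 of 249 alternative fits kept the direction and the side of the adjusted p threshold. Signs turned in 6: among mice labelled male for Rxra (0.056), Rxrg (0.27) and Rara (-0.082), with the GC trend removed for Rara (-0.0077), and for Nr3c1 with the length trend removed (0.048, or 0.037 with a replicate block as well). Thrb passed the adjusted p in 3 fits (0.0321 with exchanged sex labels as covariate, 0.0118 without mutant M1, 0.0174 among mice labelled female). Over all genes, 2049 were called, against 1284 (653 higher) of 9983 with a mean count of at least 50, 906 (367 lower, 539 higher) at a fold over 2 and 4096 (1967 lower, 2129 higher) with no fold threshold. The interaction of genotype and sex passed for 38 genes, for 1 with control sex labels exchanged, and for 26 to 64 with each labelled mutant left out (64 without mutant M1; no control was left out, since 1 mouse of a labelled sex would remain). With each library left out, the log2 difference ran from -0.13 to 0.095 for Thra to Thrb and from -0.024 to 0.11 for Rxra to Rxrg, with both signs. Replicate numbers did not pair mice (mean r of same-numbered mice -0.0071), and with a replicate block 1957 genes and the 3 receptors were called (Vdr -1.78, Nr3c2 -1.01, Rora -0.74). No scaling moved the median of all genes by over 0.1. Depth limits Esr1 and the receptors and enzymes that were not tested.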
